A study of Bursaphelenchus xylophilus with 12 samples.

Results

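Among the genes of adult pine wood nematodes, 150 stood out for levels that varied widely between replicate libraries at 12 h and hardly at all at 24 h. They were chosen by their measured spread. Among the 18036 gene IDs of the table, 10333 IDs that start with BXY had a mean of 5 to under 800 FPKM (fragments per kilobase of transcript and unit of sequencing, a level corrected for gene length and library size) over the 12 libraries. The spread s12 is the square root of the mean of the EB12 and EC12 variances of log2(FPKM + 1), and s24 is the same for EB24 and EC24. An s12 of at least 0.6 was reached by 1023 of these genes, and 945 of them had an s24 under 0.3. The 150 with the highest s12 are the members described here. The 12 libraries fall into 4 groups of 3 and are each from 200 adults of Bursaphelenchus xylophilus strain NB-6 that had grown on the fungus Botrytis cinerea. The EB12 and EB24 worms lay in emamectin benzoate at 0.1 mg/L for 12 h or 24 h at 25 °C. The EC12 and EC24 worms lay in the adjuvants of that product for the same times, octylphenol polyoxyethylene-10 and n-butyl alcohol. The treatment text names the adjuvant groups ON, and EC was matched to them by elimination. Nothing in the labels says that replicates were separate cultures, so every p-value rests on the scatter of these 12 libraries and may reflect technical differences alone.

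The pine wood nematode is carried between trees by longhorn beetles, feeds on fungi and on living pine cells, and causes pine wilt disease. Emamectin benzoate is an avermectin that is injected into pine trunks against it. Avermectins hold open glutamate-gated chloride channels of nematode nerve and muscle, which paralyses the animal. A library made from whole worms averages over males, females, eggs inside females and all tissues. A lower level of a gene can therefore mean fewer cells of one kind or less RNA per cell, and these cannot be told apart here. The table gives no gene names, and functions of the members, their positions in the genome and their sequences are not analysed here.

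The members had an s12 of 1.35 to 2.63 log2 units, with a median of 1.56, against 0.25 for the 9903 other genes of the same range of means and the same limit on s24. Their s24 was 0.01 to 0.30, with a median of 0.15, against 0.09 for the other genes. The mean level of the members ran from 5.55 to 681 FPKM with a median of 38.98, where the other genes had one of 34.6 FPKM. The rule set the limits of this mean, and some members reached it only through high 12 h libraries. An example was BXY_1281900, with 57.9 FPKM in EB12 replicate 1 and at most 0.67 FPKM at 24 h. BXY_1362800 and BXY_0827800 reached it only through EC24, with 33.4 to 43.6 FPKM there and at most 13.0 FPKM in any other library. Between the lowest and the highest of the 6 libraries at 12 h the members differed 7.16-fold to 111-fold, the median being 17.2-fold, leaving out 1 gene with a 0 at 12 h. All 150 members passed the filter on low values, which asks for 3 or more libraries at 1 FPKM or above. At the edge of the choice stood BXY_0979800 and BXY_1525300 at ranks 149 and 150, both with an s12 of 1.35. BXY_1350200 and BXY_0981700 at ranks 151 and 152 had 1.34. A further 20 genes had an s12 as high as a member's but an s24 of 0.3 or more. Among these were BXY_0618800, with an s12 of 2.56 and an s24 of 0.305, and BXY_0210100, with 2.40 and 0.302.

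The number of IDs at an FPKM of at least 1 was 12543 to 13035 per library at 12 h and 13107 to 13358 at 24 h. At 12 h it was 13023 in EC12 replicate 1, 12800 in EC12 replicate 2, 12543 in EC12 replicate 3, 13035 in EB12 replicate 1, 12551 in EB12 replicate 2 and 12690 in EB12 replicate 3. EB12 replicate 2 and EC12 replicate 3, the libraries that most often held the lowest level of a member, were also the 2 with the fewest such IDs. Whether this difference has a part in the spread of the members was not tested.

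**Figure D1:**
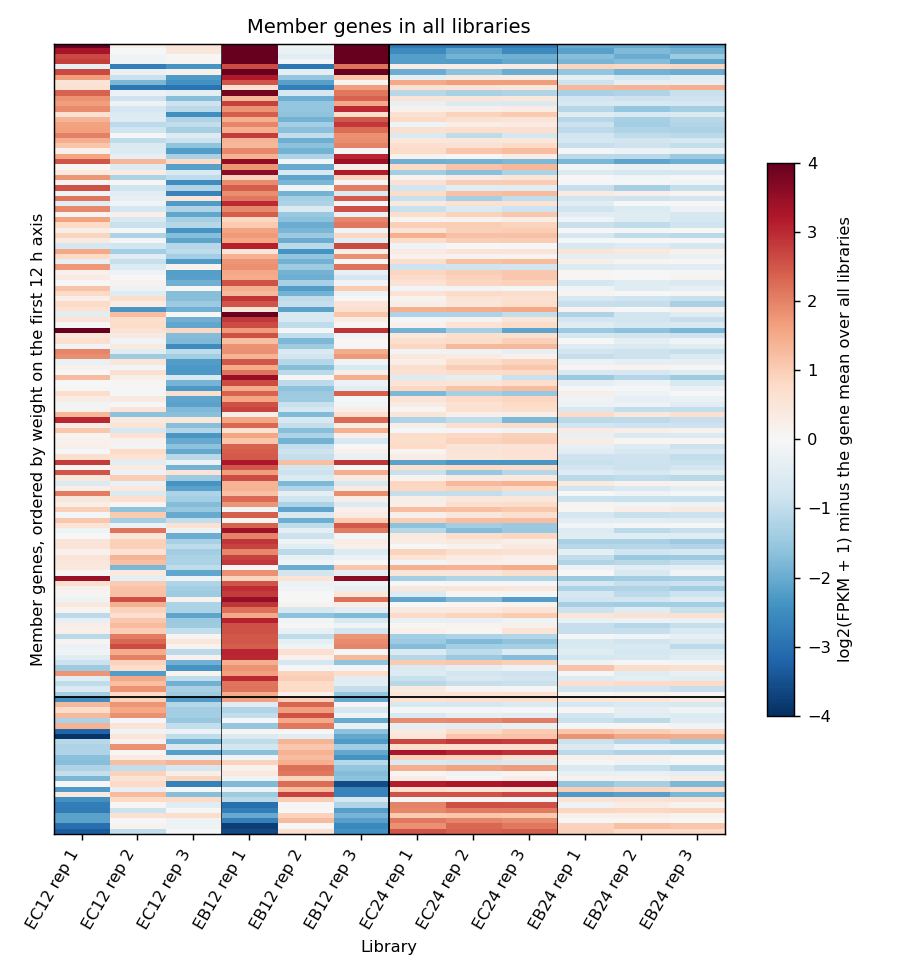
Log2(FPKM + 1) of the 150 members (rows, ordered by their weight on the first axis of the 12 h deviations) in the 12 libraries (columns), with the mean of each gene over all libraries taken off. The colour scale ends at 4 log2 units either way, and the horizontal line parts the 124 genes with a negative weight from the 26 with a positive one. EB12 replicate 1 is high in most of the upper rows and EB12 replicate 2 and EC12 replicate 3 are low there, while the 3 replicates of each 24 h group look alike.

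The uneven levels at 12 h were shared between genes and between the agents. Within EB12 the highest library was replicate 1 for 98 of the 150 members, replicate 3 for 28 and replicate 2 for 24. The lowest was replicate 2 for 111 members, replicate 3 for 28 and replicate 1 for 11. Within EC12, replicate 1 was highest for 71 members, replicate 2 for 71 and replicate 3 for 8, and replicate 3 was lowest for 101. The other genes within the same limits on mean and s24 were spread more evenly in EC12. There each library was highest in 28.5% to 37.2% of them and lowest in 26.9% to 38.4%. In EB12, replicate 2 was highest in 47.3% of those other genes and lowest in 35.1%. The rule used the size of the spread within each group, and not which library was high.

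Most of this spread lay along 1 axis. In a singular value decomposition of the deviations of each gene from its group mean at 12 h, axis 1 held 65.3% of the members' variance and axis 2 held 24.4%. The coordinate of each library on axis 1, which has no unit, was 0.67 for EB12 replicate 2, 0.36 for EC12 replicate 3 and 0.02 for EC12 replicate 2. On the other side, EB12 replicate 3 had -0.17, EC12 replicate 1 had -0.38 and EB12 replicate 1 had -0.50. The 13618 other tested genes, decomposed on their own, gave nearly the same order: 0.62, 0.34 and 0.14 for the first 3 libraries and -0.14, -0.48 and -0.48 for the last 3, with 53.0% of their variance. Axis 2 of the members set EC12 replicate 2 at 0.59 and EB12 replicate 1 at 0.40 against EB12 replicate 3 at -0.54, and EC12 replicates 1 and 3 at -0.30 each.

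Libraries of different agents correlated in these genes, and did so across the table. Across the 150 members the deviations of EC12 replicate 1 correlated with those of EB12 replicate 3 at r = 0.65 and with those of EB12 replicate 2 at r = -0.64, where the 13618 other tested genes had 0.37 and -0.53. EC12 replicate 2 correlated with EB12 replicate 2 at r = 0.49 and with EB12 replicate 3 at r = -0.75, against 0.15 and -0.38 in the other genes. EC12 replicate 3 correlated with EB12 replicate 2 at r = 0.34 and with EB12 replicate 1 at r = -0.47, less than the 0.51 and -0.53 of the other genes. These are descriptions over genes measured in the same 6 libraries, and the deviations of each group sum to 0. Libraries with the same replicate number correlated at r = 0.25 for number 1, 0.49 for number 2 and -0.03 for number 3.

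The members formed 17 patterns of highest and lowest library, of which 6 held more than 10 genes each and 116 genes in all. The most frequent, with 35 members, had EB12 replicate 1 and EC12 replicate 2 highest and EB12 replicate 2 and EC12 replicate 3 lowest. BXY_0665000, the member of this pattern with the highest s12, stood at 14.2, 17.8 and 3.18 FPKM in EC12 replicates 1 to 3 and at 161, 7.63 and 18.6 FPKM in EB12. EB12 replicate 1 alone lay far above the other 5 libraries. At 24 h the gene stood at 24.8, 29.7 and 29.6 FPKM in EC24 and at 14.0, 19.7 and 18.9 FPKM in EB24, inside the range of the 12 h libraries.

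A second pattern, with 31 members, differed in that EC12 replicate 1 was the highest adjuvant library. BXY_1562100 stood at 45.7, 6.90 and 2.01 FPKM in EC12 and at 128, 3.93 and 30.1 FPKM in EB12. The high libraries here were EB12 replicate 1, EC12 replicate 1 and EB12 replicate 3. BXY_0432000, from a pattern of 14 members in which EB12 replicate 3 was highest, stood at 55.2, 3.97 and 3.78 FPKM in EC12 and at 55.9, 4.49 and 117 FPKM in EB12. BXY_1373500 and 12 other members had EB12 replicate 3 and EC12 replicate 1 highest and the replicates numbered 2 lowest in both groups, and this gene stood at 32.4, 1.40 and 1.75 FPKM in EC12 and at 4.67, 3.49 and 36.4 FPKM in EB12. In BXY_1601400, which stands for 12 members whose lowest EB12 library was replicate 3, the values were 14.7, 41.0 and 5.99 FPKM in EC12 and 166, 17.2 and 11.9 FPKM in EB12. The sixth pattern, with 11 members, had EB12 replicate 1 and EC12 replicate 1 highest and the replicates numbered 2 lowest.

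**Figure D2:**
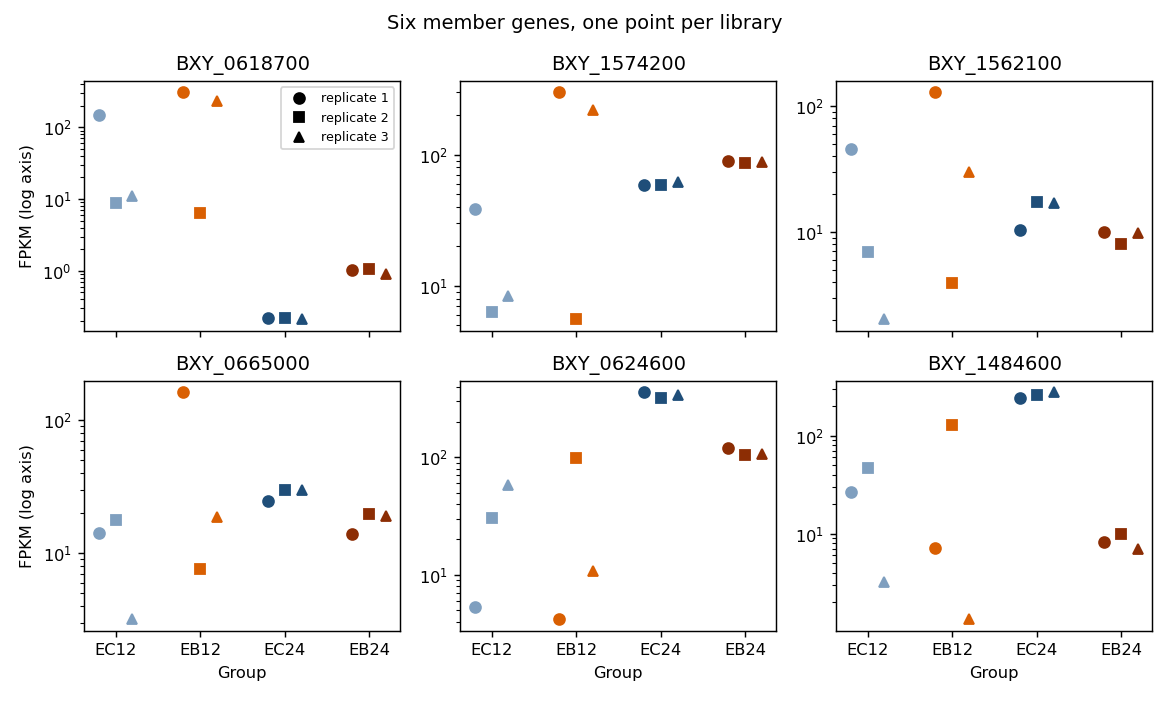
FPKM (logarithmic axis) of 6 members in each library, with 1 point per library, groups on the horizontal axis and replicate numbers as symbols. In BXY_0618700 the libraries EC12 replicate 1, EB12 replicate 1 and EB12 replicate 3 lie between 147 and 307 FPKM and all other 12 h libraries between 6.29 and 11.1, while in BXY_0624600 those 3 libraries are the lowest.

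That sixth pattern held the member with the highest s12. BXY_0618700 stood at 147, 8.78 and 11.1 FPKM in EC12 and at 307, 6.29 and 236 FPKM in EB12, a 48.8-fold range. At 24 h it was nearly absent, at 0.22, 0.22 and 0.21 FPKM in EC24 and at 1.04, 1.06 and 0.89 FPKM in EB24. Every 24 h library lay under every 12 h library. BXY_1470700 followed the same course, with 56.7, 4.76 and 7.07 FPKM in EC12, 231, 3.82 and 113 FPKM in EB12, and at most 0.74 FPKM at 24 h. BXY_1342500 stood at 40.0, 4.97 and 5.52 FPKM in EC12 and at 196, 3.82 and 119 FPKM in EB12, with 0.44 to 1.43 FPKM at 24 h. BXY_0619000 stood at 33.1, 3.47 and 4.42 FPKM in EC12 and at 185, 3.59 and 98.7 FPKM in EB12, with 0.07 to 0.51 FPKM at 24 h. In these 4 genes the libraries EB12 replicate 1, EB12 replicate 3 and EC12 replicate 1 were the 3 highest, in that order.

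In all, 7 members stood under 1 FPKM in every 24 h library. Besides BXY_1470700, BXY_0619000 and BXY_1373500 these were BXY_0618900, BXY_1010300, BXY_0593900 and BXY_1281900, which were named after their values were seen. Of the 13768 tested genes 114 did so, and of the 9903 other genes within the same limits on mean and s24, 0. Such a gene passes the lower limit on the mean only through its 12 h libraries, so nothing is read from the count of 7. The same holds for the falls of BXY_0618700 and BXY_1342500, which reached at most 1.06 and 1.43 FPKM at 24 h. Of the 150 members 124 had a negative weight on axis 1, and all 7 were among them. Their order at 12 h was not uniform: BXY_0593900 was highest in EC12 replicate 1 with 97.8 FPKM, against 14.5 FPKM in EB12 replicate 1, and BXY_1281900 was highest in EB12 replicate 1 with 57.9 FPKM and at 0.71 FPKM in EC12 replicate 1. A gene of the same axis side could also stay on at 24 h. BXY_1574200 had the 12 h course of BXY_0618700, with 38.4, 6.32 and 8.44 FPKM in EC12 and 298, 5.55 and 220 FPKM in EB12. It then stood at 58.6, 58.5 and 62.3 FPKM in EC24 and at 90.1, 85.6 and 87.5 FPKM in EB24, above the 3 low libraries and EC12 replicate 1 and below EB12 replicates 1 and 3.

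The 26 members with a positive weight on axis 1 ran the other way, with EB12 replicate 2 high. BXY_0624600, with the largest positive weight, stood at 5.30, 30.7 and 57.9 FPKM in EC12 and at 4.17, 99.1 and 10.8 FPKM in EB12. At 24 h it was higher than in any 12 h library, at 356, 318 and 338 FPKM in EC24 and at 120, 104 and 107 FPKM in EB24. BXY_1441400 stood at 19.97, 185 and 147 FPKM in EC12 and at 11.3, 166 and 27.3 FPKM in EB12. At 24 h it stood at 595, 833 and 726 FPKM in EC24 and 322, 385 and 365 FPKM in EB24. Both genes were also named for being among the largest rises, and time cannot be told apart from batch. BXY_1469500 had the same shape, at 27.6, 108 and 190 FPKM in EC12, 28.4, 198 and 42.2 FPKM in EB12, 756 to 828 FPKM in EC24 and 352 to 363 FPKM in EB24. In these 3 genes the libraries EB12 replicates 1 and 3 and EC12 replicate 1 were the 3 lowest of the 12. Of the other genes with a large positive weight, BXY_1273200 stood at 1.07, 8.21 and 6.95 FPKM in EC12 and 0.36, 20.6 and 1.00 FPKM in EB12, and BXY_0527300 at 29.2, 203 and 217 FPKM in EC12 and 32.1, 250 and 35.6 FPKM in EB12.

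**Figure D3:**
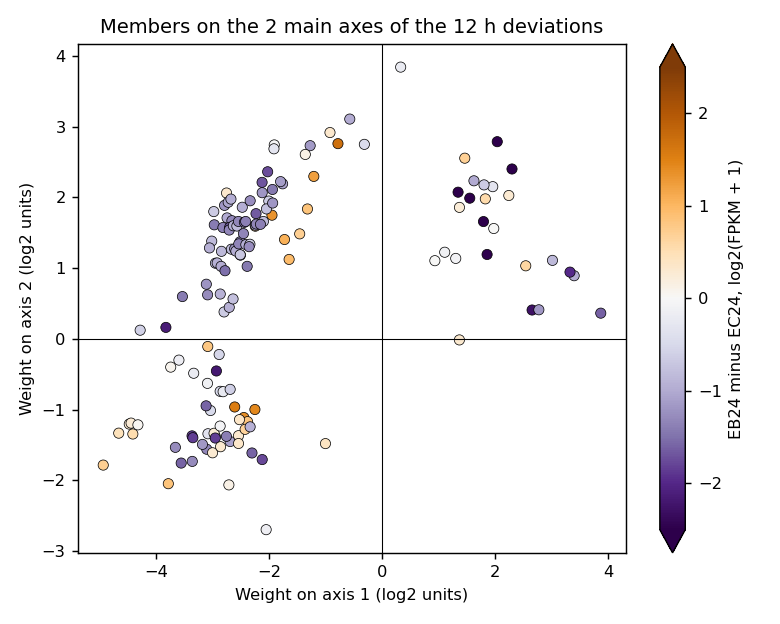
Each point is 1 of the 150 members, placed by its weight on axis 1 (horizontal, log2 units) and axis 2 (vertical, log2 units) of the 12 h deviations and coloured by its difference between EB24 and EC24, which played no part in the placing. Of the members, 75 lie at the upper left, 49 at the lower left, 25 at the upper right and 1 at the lower right. The median difference is -0.98 at the upper left and -0.16 at the lower left.

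Together the 150 members took a share of the summed FPKM that differed most between the 12 h libraries. It was 1.43%, 1.43% and 0.475% in EC12 replicates 1 to 3 and 4.21%, 0.812% and 1.45% in EB12. EB12 replicate 1 held the highest share and EC12 replicate 3 the lowest. The members were chosen for a high spread at 12 h and a low one at 24 h, so the uneven share at 12 h is built into the choice. At 24 h the share was 1.53%, 1.77% and 1.86% in EC24 and 0.985%, 0.923% and 0.920% in EB24, so the groups did not overlap at 24 h. The median member stood at 37.9, 30.5 and 10.1 FPKM in EC12, at 101, 16.8 and 37.8 FPKM in EB12, at 34.6, 35.5 and 35.6 FPKM in EC24 and at 18.4, 18.2 and 18.6 FPKM in EB24.

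**Figure D4:**
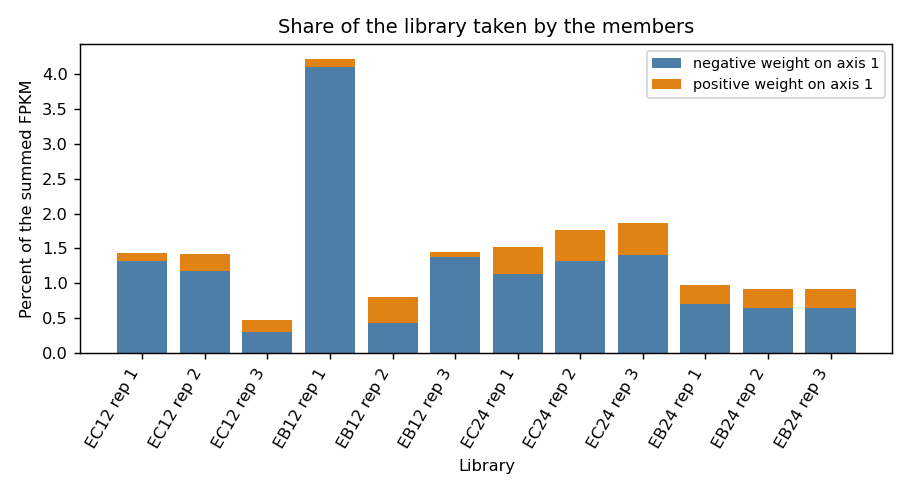
Share of the summed FPKM of each library (percent, bars from 0) that the members take, split into those with a negative and a positive weight on axis 1. EB12 replicate 1 stands at 4.21% and EC12 replicate 3 at 0.475%, and the 3 EB24 libraries lie at 0.920% to 0.985%, below the 3 EC24 libraries at 1.53% to 1.86%.

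The agent difference at 24 h was not itself used to choose the members. The limit on s24, however, favours a call at 24 h. The lower limit on the mean let BXY_1362800 and BXY_0827800 in only through EC24. Of the 150, 99 were lower and 26 higher in EB24 than in EC24, and 25 did not pass the test (limma on the 6 libraries at 24 h, Benjamini-Hochberg adjusted p under 0.05 over 13768 genes). The share called lower was 66.0%, against 16.9% of all tested genes. It was 18.3% of the 9903 other genes within the same limits on mean and s24. The share called higher was 17.3%, against 35.9% of all tested genes and 42.3% of those other genes. A fall of at least 1 log2 unit was called for 60 members, or 40.0%, against 2.56% of all tested genes and 2.20% of the others, and a rise of that size for 7 members, against 2.56% and 2.44%. The median difference of the members was -0.85 log2 units, where that of all tested genes was 0.14. After rescaling by median ratios these medians were -0.94 and 0.06, and after quantile normalization -0.85 and 0.03. All 3 EB24 libraries lay below all 3 EC24 libraries in 102 members and above them in 27, where 19.7% and 40.4% of all tested genes did. The members share most of their 12 h variance, so they are not 150 independent observations.

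The choice of spread matters to these calls. A fit of all 12 libraries takes in the 12 h spread the members were chosen for. It called 6 of the 150 members lower and 0 higher, with 18 members at an unadjusted p under 0.05. Of the 13768 tested genes it called 653 lower and 1998 higher. The members were thus called lower no more often than the tested genes, and nothing is read from the count of 6. The 6 were BXY_1484600, BXY_0827600, BXY_1362800, BXY_0827800, BXY_1260300 and BXY_0692600, of which the last 2 were named after their values were seen. Among them, BXY_1362800 and BXY_0827800 passed the limit on the mean only through EC24. With the members chosen again without 1 library at 12 h, 85 to 115 of 150 were lower and 17 to 34 higher in the fit of the 24 h libraries. The 17 was found without EB12 replicate 2.

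**Figure D5:**
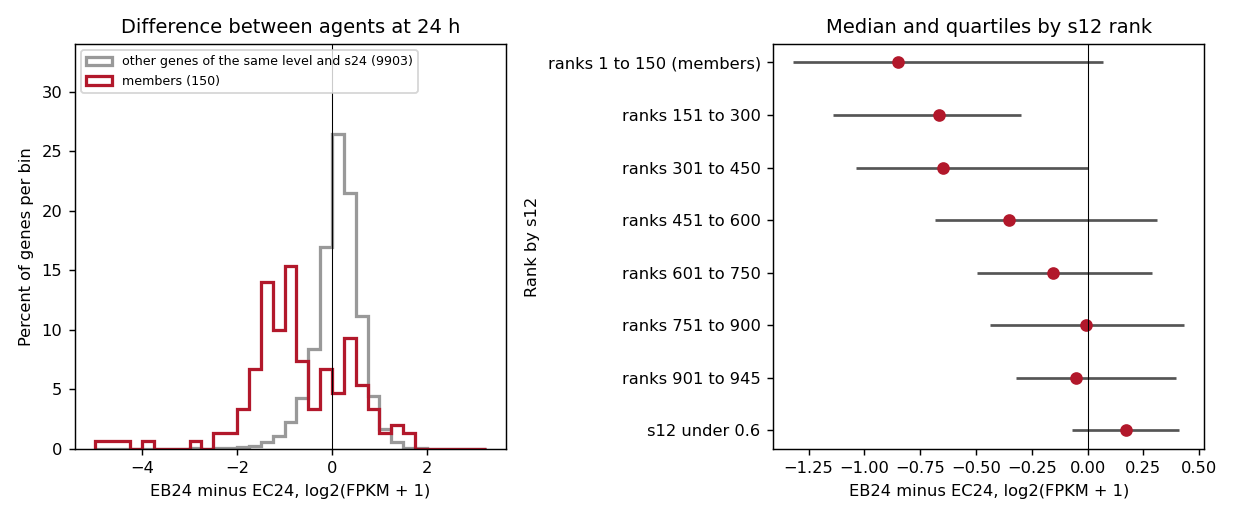
Left, percent of genes per bin of 0.25 log2 units of the difference EB24 minus EC24, for the 150 members and for the 9903 other genes with the same range of means and the same limit on s24. Right, the median (point) and quartiles (line) of that difference for the candidate genes by their rank in s12, the spread between replicates at 12 h, with the 9108 genes of s12 under 0.6 last. The medians go from -0.85 for the members to 0.17 for the genes with s12 under 0.6.

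The lower levels in EB24 were not limited to the 150 genes. Going down in s12, the next 5 blocks of 150 candidates had median differences of -0.67, -0.65, -0.35, -0.16 and -0.01, and the last 45 candidates had one of -0.05. The 9108 genes within the same limits on mean and s24 with an s12 under 0.6 had a median of 0.17. Within the members the difference at 24 h did not follow s12, with r = -0.00 across the 150 genes.

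The calls at 24 h can be given by the 12 h pattern of the members. Of the 35 members of the most frequent pattern, 34 were lower and 1 higher in EB24, with a median of -1.20 log2 units. Of the 31 with EB12 replicate 1 and EC12 replicate 1 highest and EB12 replicate 2 and EC12 replicate 3 lowest, 26 were lower and 1 higher, with a median of -0.85. Of the 11 members with the pattern of BXY_0618700, 1 was lower and 4 higher, with a median of 0.29. These 4 are 36.4% of the 11, near the 35.9% of all tested genes called higher. The other frequent patterns were mixed. Of the 14 members with the pattern of BXY_0432000, 9 were lower and 3 higher. Of the 13 with that of BXY_1373500, 7 were lower and 2 higher, and of the 12 with that of BXY_1601400, 7 and 3. Among all tested genes 16.9% were called lower. On the axes, 63 of the 75 members with a negative weight on axis 1 and a positive one on axis 2 were lower, as were 21 of the 49 with both weights negative and 15 of the 26 with a positive weight on axis 1. Across the 150 members the difference at 24 h correlated weakly with the weights, at r = -0.19 for axis 1 and -0.21 for axis 2. These classes were read from the 12 h values, and the differences between them were not tested.

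The largest falls with emamectin benzoate at 24 h were all in genes with a positive weight on axis 1. BXY_1484600 stood at 243, 262 and 276 FPKM in EC24 and at 8.26, 10.02 and 7.00 FPKM in EB24, a log2 difference of -4.81 with an SE of 0.11 (limma adjusted p = 5.19e-08). At 12 h it stood at 26.9, 46.9 and 3.24 FPKM in EC12 and at 7.10, 129 and 1.33 FPKM in EB12, so the EB12 libraries straddled the EB24 level. BXY_0827600 stood at 72.9, 73.0 and 81.5 FPKM in EC24 and at 1.69, 1.89 and 2.64 FPKM in EB24 (log2 difference -4.65 ± 0.12 SE, limma adjusted p = 6.00e-08). Its 12 h values were 15.6, 30.5 and 2.98 FPKM in EC12 and 3.79, 85.9 and 1.02 FPKM in EB12, in the same order of libraries as BXY_1484600. BXY_1362800 stood at 43.6, 37.1 and 33.9 FPKM in EC24 and at 1.19, 0.96 and 0.87 FPKM in EB24 (log2 difference -4.28 ± 0.13, limma adjusted p = 1.01e-07), with 1.00, 3.82 and 0.00 FPKM in EC12 and 0.43, 11.0 and 0.12 FPKM in EB12. BXY_0827800 stood at 33.4, 37.1 and 36.0 FPKM in EC24 and at 2.01, 1.38 and 1.00 FPKM in EB24 (log2 difference -3.91 ± 0.15, limma adjusted p = 3.24e-07), with 1.53, 5.04 and 0.43 FPKM in EC12 and 1.66, 13.0 and 0.12 FPKM in EB12. In all 4 genes EB12 replicate 2 was the highest 12 h library and EC12 replicate 2 the next. BXY_1362800 and BXY_0827800 passed the limit of 5 FPKM on the mean only through EC24. The falls of these genes are therefore partly built into the choice.

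The largest rises with emamectin benzoate at 24 h were smaller. BXY_1147500 stood at 4.45, 5.21 and 5.37 FPKM in EC24 and at 17.6, 18.9 and 19.3 FPKM in EB24, a log2 difference of 1.71 with an SE of 0.10 (limma adjusted p = 3.24e-06). BXY_1267100 stood at 16.9, 24.0 and 21.0 FPKM in EC24 and at 73.5, 53.5 and 61.3 FPKM in EB24 (log2 difference 1.56 ± 0.14, limma adjusted p = 3.14e-05). Its 12 h values were 102, 60.1 and 96.5 FPKM in EC12 and 318, 21.6 and 325 FPKM in EB12. BXY_0707300 had nearly the same shape at a lower level, with 11.2, 13.4 and 12.4 FPKM in EC24, 34.4, 35.3 and 35.9 FPKM in EB24, 53.9, 31.2 and 57.0 FPKM in EC12 and 191, 17.9 and 207 FPKM in EB12. BXY_1576500 stood at 3.38, 2.86 and 2.86 FPKM in EC24 and at 9.40, 9.75 and 9.30 FPKM in EB24 (log2 difference 1.38 ± 0.11, limma adjusted p = 1.81e-05), all below its lowest 12 h library at 13.0 FPKM. The calls on these 4 genes were lost in the fit of all 12 libraries (limma adjusted p = 0.108 to 0.196).

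The most abundant members showed the same uneven libraries at high levels. BXY_1699600, with the highest mean, stood at 478, 1037 and 123.4 FPKM in EC12, at 2667, 329 and 626 FPKM in EB12, at 582, 690 and 785 FPKM in EC24 and at 311, 271 and 273 FPKM in EB24. EB24 lay below EC24 (log2 difference -1.25 ± 0.10, limma adjusted p = 1.83e-05). BXY_0608700 followed at 414, 738 and 103 FPKM in EC12, 2274, 242 and 476 FPKM in EB12, 459 to 640 FPKM in EC24 and 274 to 315 FPKM in EB24. BXY_0329300 stood at 350, 420 and 98.8 FPKM in EC12 and at 1294, 146 and 327 FPKM in EB12. In these 3 genes EB12 replicate 1 was the highest 12 h library and EC12 replicate 3 the lowest. BXY_1699200 differed, at 51.1, 435 and 407 FPKM in EC12 and 509, 483 and 152 FPKM in EB12, with EC12 replicate 1 the lowest. At 24 h it stood at 630, 809 and 1003 FPKM in EC24 and at 1037, 943 and 876 FPKM in EB24, and the agents overlapped (log2 difference 0.25 ± 0.14, limma adjusted p = 0.181). That test passed without EC24 replicate 3 (limma adjusted p = 0.0186) and after quantile normalization (0.0250).

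At 12 h the comparison of agents gave nothing that held against the spread. The spread at that time chose the members, so nothing is read from the counts. None of the 150 was called in either direction by limma on the 6 libraries at 12 h, the lowest adjusted p being 0.979, and 1 member had an unadjusted p under 0.05. The background was 0.00% of tested genes called higher and 0.00% lower, with 566 of the 13768 at an unadjusted p under 0.05. The fit of all 12 libraries called 0 members as well, and 4 had an unadjusted p under 0.05. No member had EB12 and EC12 without overlap, against 9.83% of all tested genes. The mean of EB12 was above that of EC12 in 132 members, with a median difference of 0.77 log2 units, against -0.05 for all tested genes. This lean rested on single libraries: leaving out EB12 replicate 1 brought the median to 0.07, leaving out EC12 replicate 3 to 0.20, and leaving out EB12 replicate 2 to 1.44. The group number in the titles differs between EC12 and EB12, and what it stands for is not stated, so at 12 h the agent cannot be told apart from whatever that number marks.

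From 12 h to 24 h, most members settled inside the range that the 12 h libraries had covered. All 6 libraries at 24 h lay within that range in 100 members, all lay below it in 15 and all above it in 4, and 31 members were partly outside. A wide 12 h range makes this more frequent, and 17.0% of the 9903 other genes lay within theirs. All 24 h libraries lay below all 12 h libraries in 12.6% of all tested genes and 15.4% of the 9903. They lay above them in 16.9% and 17.3%. A wide 12 h range makes both rarer, so nothing is read from the counts of 15 and 4. The 4 above were BXY_0624600, BXY_1441400, BXY_1469500 and BXY_1699200. The 15 below all had a negative weight on axis 1, as did 124 of the 150 members. In the adjuvant groups 34 members were higher and 20 lower at 24 h (limma on the 6 EC libraries), where 23.7% and 24.7% of all tested genes were. In the emamectin benzoate groups 4 were higher and 19 lower, against 28.7% and 11.4%. The 12 h spread that chose the members enters both of these tests, and each shares 3 libraries with the comparison at 24 h. Time goes with whatever else differed between the 2 sets of libraries, and the titles of the 12 h libraries carry a group number that those at 24 h lack, so an effect of time cannot be told apart from one of batch.

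The median change of the members was 0.70 log2 units from EC12 to EC24, where all tested genes had 0.04, and -1.06 from EB12 to EB24, where they had 0.15. These changes use the 12 h values that chose the members, and the difference between the agents was not tested. In both agents these medians leaned on 12 h libraries. The change in EC was 0.11 without EC12 replicate 3, and that in EB was -0.46 without EB12 replicate 1 and -1.68 without EB12 replicate 2. The counts moved too. In EC, 65 members were higher at 24 h without EC12 replicate 1 and 19 or 20 without any 1 of the EC24 libraries, and 31 were lower without EC12 replicate 3. In EB, 76 members were lower at 24 h without EB12 replicate 2, 12 without EB12 replicate 3 and 4 without any 1 of the EB24 libraries. The members higher in EB24 numbered 13, 12 and 2 without EB12 replicates 1, 2 and 3, and 1 without any 1 of the EB24 libraries. Called in both agents were 13 members lower and 2 higher, and 0 were called in opposite directions, where 9.19%, 15.2% and 0.407% of all tested genes were. Nothing is read from these counts, since both tests use the 12 h values. BXY_0618700 was among the 13, with log2 changes of -4.42 in EC and -5.34 in EB. It passed the lower limit on the mean only through its 12 h libraries, so its fall is partly built into the choice.

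Some members have IDs next to each other in number. IDs that start with BXY go up in steps of 100, and 31 members (20.7%) fell into 15 runs of IDs without a gap. How often an equal number of other genes would form such runs was not counted, so nothing is read from this share. The runs gave 16 neighbouring pairs. Across the 12 libraries the log2 levels of 9 of these pairs correlated above 0.9, the median of the 16 being 0.94. Over all 11175 pairs of members the median was 0.40, and 8.61% of the pairs lay above 0.9. The highest was 0.997 for BXY_0618900 and BXY_0619000, and BXY_0618700 and the left-out BXY_0618800 are the IDs just before them. All 4 had EB12 replicates 1 and 3 and EC12 replicate 1 as their highest libraries. In 14 of the 16 pairs the differences of both genes at 24 h had the same sign, as they did in 60.01% of all pairs of members and in 57.0% of the 11151 neighbouring pairs of tested IDs. The exceptions were BXY_1260200 and BXY_1260300, with r = -0.40 and log2 differences of 0.85 and -2.78, and BXY_1699100 and BXY_1699200, with r = -0.25 and -1.37 and 0.25. The sources used here do not say whether neighbouring numbers are neighbours in the genome or near-identical copies that could share reads, so such pairs may not be separate measurements.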

How the data were processed

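The levels come from 1 table that the authors deposited, with FPKM to 2 decimals for 18036 IDs (17704 BXY, 332 XLOC) in 12 libraries. Per the submitters' processing notes TopHat2 2.1.1 was used. Not given in the sources used here are the counting tool, annotation, genome build and strand handling. All 12 columns matched 1 library title each. Read totals are not in the table. The steps between low values put the depth of the other libraries at 0.829 to 2.46 times that of EC24 replicate 1, with second readings a factor of 2 away, so no counting interval is given.

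From the deposited FPKM, log2(FPKM + 1) was computed for the 13768 IDs that reached 1 FPKM in 3 or more libraries, and fold changes on this scale understate those of low genes. Each comparison was fitted on its own 6 libraries with limma 3.58.1 in R 4.3.3 (eBayes with trend, two-sided, Benjamini-Hochberg over all tested genes, threshold 0.05), so that the 12 h spread behind the choice of members did not enter the 24 h test. The limit on s24 does enter the 24 h test, since a low scatter within EB24 and EC24 favours a call. The fit was tested on simulated data. Axes came from a singular value decomposition in numpy 2.4.6, oriented so that EB12 replicate 2 is positive on each.

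The members and lists were chosen with earlier results of these data known. Named genes are the members with the highest s12, mean, axis 1 weights and changes, and the first of each frequent pattern. Gene lists by function were not filled, since gene descriptions were not used here.
Alternatives were other pseudocounts (0.1 and 0.5), filters, scalings, a fit of all 12 libraries, a replicate block, leaving out each library, a minimum log2 change of 1, and members chosen without 1 library at 12 h. The last 2 and the second axis were added after seeing the data.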

Additional observations from a re-analysis of the deposited data

Results flagged for a closer look

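In BXY_1127400, alone among the members, every EC24 library lay above every EC12 library and every EB24 library lay below every EB12 library. The gene stood at 37.6, 45.4 and 8.81 FPKM in EC12 and 56.8, 62.2 and 59.2 FPKM in EC24, a log2 change of 1.21. In EB12 it stood at 204, 21.0 and 35.6 FPKM and in EB24 at 20.8, 19.2 and 20.6 FPKM, a log2 change of -1.38. The difference between the agents in this change was not tested, and neither change passed its own test (limma adjusted p = 0.0839 and 0.181). EB24 was lower than EC24 by the limma test at 24 h (log2 difference -1.51, adjusted p = 5.76e-07). The gene is named for this pattern, after its values were seen. How many of all tested genes have such a pattern was not counted. In EB it rests on a narrow gap, 20.8 FPKM in EB24 replicate 1 against 21.0 FPKM in EB12 replicate 2.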

How the results depend on the processing

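Of 144 counts recomputed under alternatives, 115 stayed within 1.5 times the main count and 29 moved further. The 115 include 14 counts of members higher and 14 of members lower in EB12 than EC12, all 0. The 12 h spread that chose the members builds in a low count there, so these say nothing about stability. Choosing again with 1 library left out kept 98 to 126 of the 150 members, the fewest without EB12 replicate 1. For EB24 against EC24, the fit of all 12 libraries called 0 members higher and 6 lower in place of 26 and 99, a minimum log2 change of 1 left 7 and 60, and members chosen without EB12 replicate 2 gave 17 higher. Leaving out 1 library gave 19 to 65 members higher and 14 to 31 lower in EC24 than EC12, where the main counts are 34 and 20. It gave 1 to 13 higher and 4 to 76 lower in EB24 than EB12, where they are 4 and 19. Without a filter on low values these 4 counts were 13, 7, 1 and 4, and the fit of all 12 libraries called 21 higher in EC24 than EC12. With a replicate block 53 members were higher in EC24 than EC12 and 33 lower in EB24 than EB12. Over all tested genes, deviations of same-numbered libraries correlated at 0.34, 0.15 and -0.05 between EB12 and EC12 and at -0.04 to 0.06 in the other 3 comparisons, so the numbers were not taken to pair libraries. Each library correlated best with its own number only between EB24 and EB12. Outside the fit of all 12 libraries, the calls of the named genes changed only in BXY_1699200, given above, and BXY_1562100. BXY_1562100 (limma adjusted p = 0.0201 for EB24 against EC24) lost its call without a filter (0.102) and without EB24 replicate 2 (0.0764), EC24 replicate 2 (0.0689) or EC24 replicate 3 (0.0698). Read totals are not in the table, so what depth limits could not be measured.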
